A study of Mus musculus with 6 samples.

Results

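The hemidesmosome genes Itga6, Itgb4, Col17a1, Dst, Plec and Cd151 were followed in a pair of mouse keratinocyte lines by RNA sequencing. They are the genes, chosen by symbol, that encode the components of this junction, and they make up 6 of the 24982 genes in the files, all 6 of which passed the filter on low values. Both lines came from the neonatal skin of C57BL/6 mice and received no treatment. The KSFM-Ca2+ line was derived and kept in keratinocyte serum-free medium without added calcium, and the DKSFM line was made from KSFM-Ca2+ cells adapted to a defined medium of higher calcium content. Each line was sequenced as 3 libraries, whose summed coverage was 1601676, 1238411 and 1057750 for KSFM-Ca2+ and 1174348, 1239438 and 1170675 for DKSFM. The files of KSFM-Ca2+ library 3 and of all 3 DKSFM libraries were marked as combined, with no explanation. As a model the comparison was limited in that medium, adaptation and time in culture cannot be told apart, and in that KSFM-Ca2+ lines are long-term cultures described with abnormal chromosome numbers. Chromosome numbers of the adapted DKSFM line were not given in the sources used here. The labels did not say whether the 3 libraries of a line came from separate cultures, so p-values measured only the spread between these samples, which may be technical.

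Hemidesmosomes are junctions that fasten basal keratinocytes to the basement membrane beneath the epidermis. Integrin α6β4 binds laminin-332 outside the cell, and plectin and the epithelial form of dystonin (BP230) tie its β4 tail to keratin filaments inside. Collagen XVII (BP180) spans the membrane beside the integrin, and the tetraspanin CD151 associates with the α6 chain.

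Levels are given as normalized coverage, the deposited coverage per gene after scaling between libraries. Coverage was taken as a depth per base and so as a level per length, although how it was computed was not stated. In KSFM-Ca2+ the order of mean levels was Col17a1, Cd151, Plec, Itgb4, Itga6 and Dst. In DKSFM it was the same except that Itga6 stood above Itgb4. Neighbours in this order were separated beyond the spread of the libraries except Cd151 and Plec in KSFM-Ca2+, where the highest Plec library, at 606, reached the lower Cd151 values. Col17a1 exceeded 99.1% of the 12409 tested genes in KSFM-Ca2+ and 99.4% in DKSFM, whereas Dst exceeded 56.9% and 68.7%.

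Of the 6 genes, 3 were higher in DKSFM (Dst, Col17a1 and Itga6) and 3 were lower (Itgb4, Plec and Cd151) at an adjusted p under 0.01 (limma, Benjamini-Hochberg over all tested genes). Among all tested genes 35.1% were called higher and 37.4% lower, so calls were common throughout the transcriptome. None of the 6 changed by 2-fold or more, against 13.1% of tested genes that were higher and 10.6% that were lower by that margin. The 3 libraries of one line lay wholly above those of the other for all 6 genes, and did so for 83.3% of tested genes. The median log2 fold change of the 6 genes was -0.03 and that of all tested genes -0.01; under quantile normalization the median of the 6 was 0.02.

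**Figure D1:**
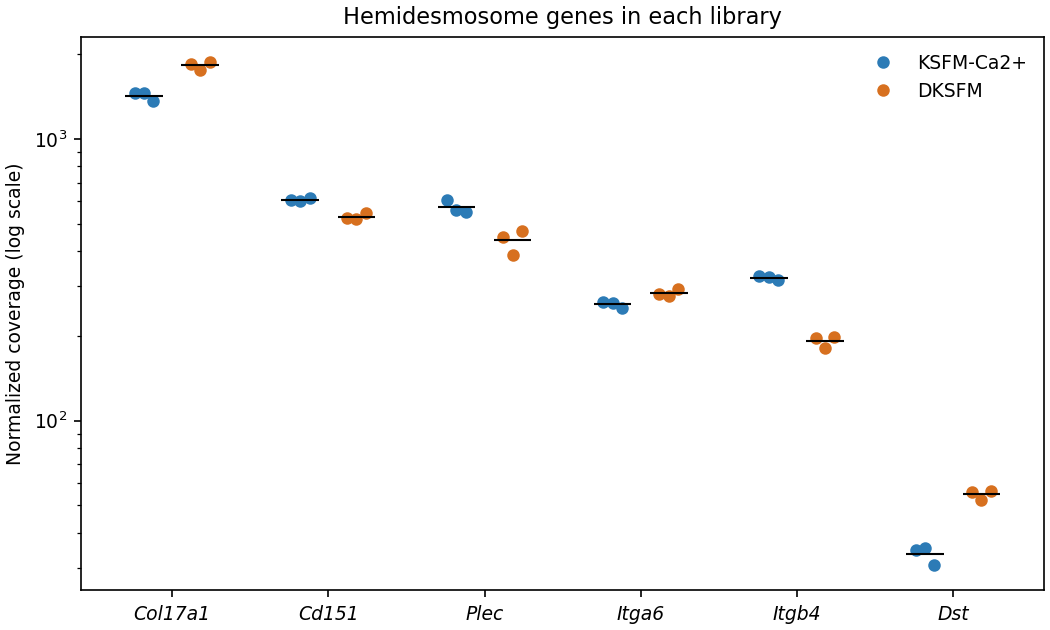
Normalized coverage (log scale) of the 6 hemidesmosome genes in each library. Points are the 3 KSFM-Ca2+ and 3 DKSFM libraries and black lines their means; the groups do not overlap for any gene, with Itgb4 at 315 to 327 in KSFM-Ca2+ and 181 to 197 in DKSFM.

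The integrin chains moved in opposite directions. Itgb4, whose long cytoplasmic tail is the docking site for the plakins, lies at chr11:115974709-116008412 (GRCm38, plus strand). Its normalized coverage was 327, 324 and 315 in the KSFM-Ca2+ libraries and 196, 181 and 197 in the DKSFM libraries. Every DKSFM library was lower than every KSFM-Ca2+ library. The mean fell from 322 ± 6.30 to 192 ± 9.07 (SD, n = 3 each), a log2 fold change of -0.75 (SE 0.04, 95% interval -0.84 to -0.66, limma adjusted p = 4.83e-07). In bulk RNA, fewer cells expressing a gene and less RNA per cell cannot be told apart.

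Itga6, the chain that can pair with either β4 or β1, lies at chr2:71745616-71858416 (GRCm38, plus strand). Its normalized coverage was 264, 261 and 252 in KSFM-Ca2+ and 282, 276 and 294 in DKSFM. The DKSFM libraries were the higher ones, by a small margin and without overlap. The mean rose from 259 ± 6.26 to 284 ± 9.14 (SD, n = 3 each), a log2 fold change of 0.13 (SE 0.03, 95% interval 0.06 to 0.21, limma adjusted p = 0.00580). This call was lost without KSFM-Ca2+ library 2 (limma adjusted p = 0.0159), KSFM-Ca2+ library 3 (0.0163), DKSFM library 1 (0.0163) or DKSFM library 3 (0.0210). It was also lost with scaling by library totals only (limma adjusted p = 0.0103), without the intensity trend in the variance (0.0234) and with only the libraries marked as combined (0.0286, the highest over the alternatives). The predicted genes Gm13662 and Gm13663 overlap Itga6 on the same strand, so reads in the shared stretches could be assigned to either.

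Ratios of a pair of genes within a library do not depend on scaling between libraries, and 7 were compared. The Itga6/Itgb4 ratio was 0.808, 0.805 and 0.801 in KSFM-Ca2+ and 1.44, 1.53 and 1.49 in DKSFM. It lay below 1 in every KSFM-Ca2+ library and above 1 in every DKSFM library. A ratio of 1 does not mark equal amounts, since the length taken for each gene was not stated. The difference was 0.88 on the log2 scale, or 1.84-fold (exact two-sided permutation p = 0.1, adjusted over the 7 ratios 0.1). With 3 libraries against 3 an exact test cannot go below 0.1, and all 7 ratios reached that smallest value with no overlap between lines. Where one gene of a ratio rose and the other fell, each without overlap, this separation was already given, so the exact p adds nothing there.

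Integrin β1, the alternative partner of α6 and a focal adhesion receptor, fell further than β4. Itgb1 coverage was 455, 460.2 and 467 in KSFM-Ca2+ and 173, 169 and 166 in DKSFM, a log2 fold change of -1.44 (SE 0.03, limma adjusted p = 2.87e-09). The Itgb4/Itgb1 ratio was 0.699 ± 0.0228 in KSFM-Ca2+ and 1.13 ± 0.0609 in DKSFM (SD, n = 3 each), a log2 difference of 0.70. The Itga6/Itgb1 ratio was 0.562 ± 0.0209 and 1.68 ± 0.0843, a log2 difference of 1.58. Thus Itgb4 fell in level but rose relative to Itgb1, while Itga6 rose relative to both β chains.

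Col17a1, which encodes the transmembrane collagen, lies at chr19:47646344-47692094 (GRCm38, minus strand). Its normalized coverage was 1459.9, 1454 and 1364 in KSFM-Ca2+ and 1849, 1764 and 1877 in DKSFM. It was the most abundant of the 6 genes in every library, and all DKSFM values were the higher ones. The mean rose from 1426 ± 53.9 to 1829.9 ± 59.1 (SD, n = 3 each), a log2 fold change of 0.36 (SE 0.04, 95% interval 0.27 to 0.45, limma adjusted p = 3.41e-05). Relative to Itgb4 the change was larger. The Col17a1/Itgb4 ratio went from 4.43 ± 0.0835 to 9.56 ± 0.159, or 2.16-fold (exact permutation p = 0.1, the smallest possible).

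The plakins of the junction moved in opposite directions, with Dst rising most of the 6 genes and Plec falling. Dst lies at chr1:33908225-34308661 (GRCm38, plus strand) and encodes BP230 in epithelia as well as far longer forms in nerve and muscle. Its normalized coverage was 34.7, 35.2 and 30.7 in KSFM-Ca2+ and 55.7, 52.5 and 56.2 in DKSFM. Every DKSFM library was higher than every KSFM-Ca2+ library, and Dst was the least abundant of the 6 genes throughout. The mean rose from 33.6 ± 2.47 to 54.8 ± 2.03 (SD, n = 3 each), a log2 fold change of 0.71 (SE 0.06, 95% interval 0.57 to 0.85, limma adjusted p = 8.98e-06). The Dst/Itgb4 ratio rose from 0.104 ± 0.00583 to 0.286 ± 0.00308, or 2.75-fold (exact permutation p = 0.1, the smallest possible).

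The annotated protein-coding transcripts of Dst ranged from 776 to 23279 bases (GENCODE M21), and its merged exons covered 41155 bases. A gene-level coverage does not tell which start or isoform was used, and the low level of Dst depends on the length taken for it, which was not stated. Gm37354, Gm38157 and Mir6896 overlap Dst on the same strand.

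Plec lies at chr15:76170974-76232574 (GRCm38, minus strand) and encodes plectin, the plakin that also binds β4 in cells that lack BP230 and collagen XVII at the junction. Its normalized coverage was 606, 559 and 549 in KSFM-Ca2+ and 449, 388 and 472 in DKSFM. DKSFM values were the lower ones without overlap, and their spread was the widest of the 6 genes relative to the mean. The mean fell from 572 ± 30.4 to 436 ± 43.7 (SD, n = 3 each), a log2 fold change of -0.39 (SE 0.07, 95% interval -0.56 to -0.23, limma adjusted p = 0.00108). When only the libraries marked as combined were compared, 1 against 3, the log2 fold change was -0.33 and the call was lost (limma adjusted p = 0.0857, the highest over the alternatives). Because Itgb4 fell more, the Plec/Itgb4 ratio rose from 1.78 ± 0.0703 to 2.27 ± 0.126. Parp10 overlaps Plec on the same strand at its upstream end.

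Cd151 lies at chr7:141467392-141471473 (GRCm38, plus strand). Its normalized coverage was 606, 600.2 and 616 in KSFM-Ca2+ and 524, 518 and 547 in DKSFM. The lines were separated, with the DKSFM libraries lower. The mean fell from 607 ± 8.18 to 529.7 ± 15.4 (SD, n = 3 each), a log2 fold change of -0.20 (SE 0.03, 95% interval -0.27 to -0.13, limma adjusted p = 3.00e-04). With only the combined libraries the log2 fold change was -0.21 and the call was lost (limma adjusted p = 0.0147, the highest over the alternatives). The Cd151/Itga6 ratio fell from 2.35 ± 0.0860 to 1.86 ± 0.00750, a log2 difference of -0.33.

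**Figure D2:**
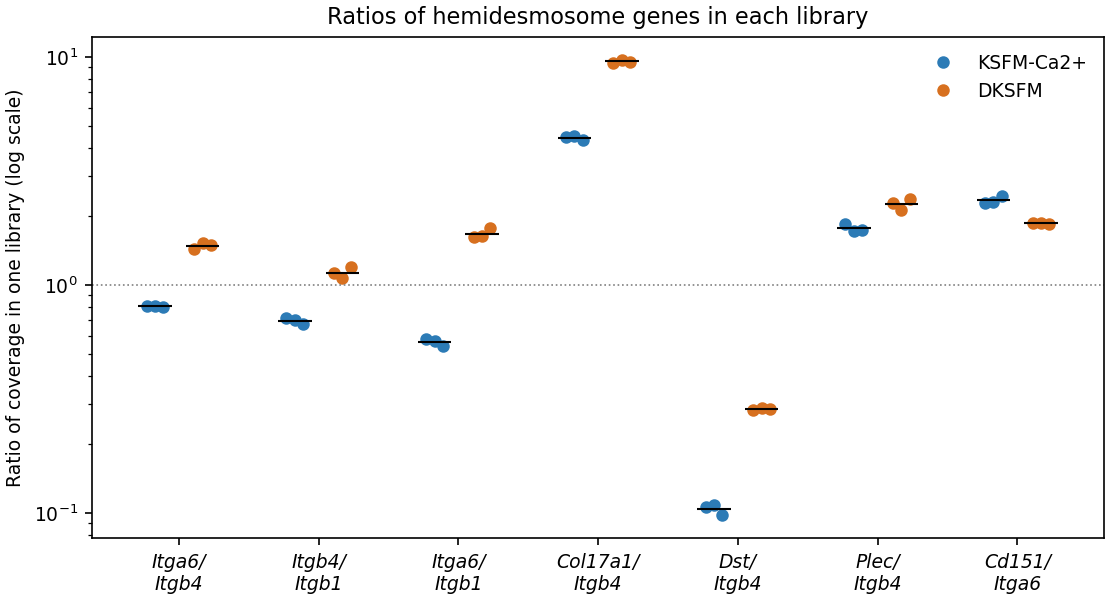
Ratios of coverage between hemidesmosome genes, or to Itgb1, within each library (log scale, dotted line at 1). The dotted line does not mark equal amounts. Points are the 3 KSFM-Ca2+ and 3 DKSFM libraries and black lines their means; Itga6/Itgb4 lies near 0.805 in KSFM-Ca2+ and near 1.48 in DKSFM.

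Because KSFM-Ca2+ lines are described with abnormal chromosome numbers, each gene was set beside the tested genes within 10 Mb on either side of it, whose median log2 fold change is given after subtracting that of all tested genes. This median was -0.48 around Dst (60 genes), -0.31 around Cd151 (107 genes), -0.13 around Col17a1 (125 genes), -0.08 around Itga6 (60 genes), -0.03 around Itgb4 (200 genes) and 0.04 around Plec (199 genes). Dst was higher in DKSFM although the genes around it were mostly lower, and it stood 1.20 above its neighbours on the log2 scale. The low median was not particular to this window, since that over the 708 other tested genes of chromosome 1 was -0.42. Cd151, lower in DKSFM, stood 0.12 above its neighbours, but this depended on the window. The median over all tested genes of chromosome 7 was 0.20, the opposite sign to the window, and Cd151 stood at -0.39 relative to it. Relative to their whole chromosomes the other genes kept their directions. Itgb4 stood at -0.71, Plec at -0.43, Col17a1 at 0.50 and Itga6 at 0.22 relative to their neighbours. Copy number itself was not measured here, and its part in these values was not tested.

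**Figure D3:**
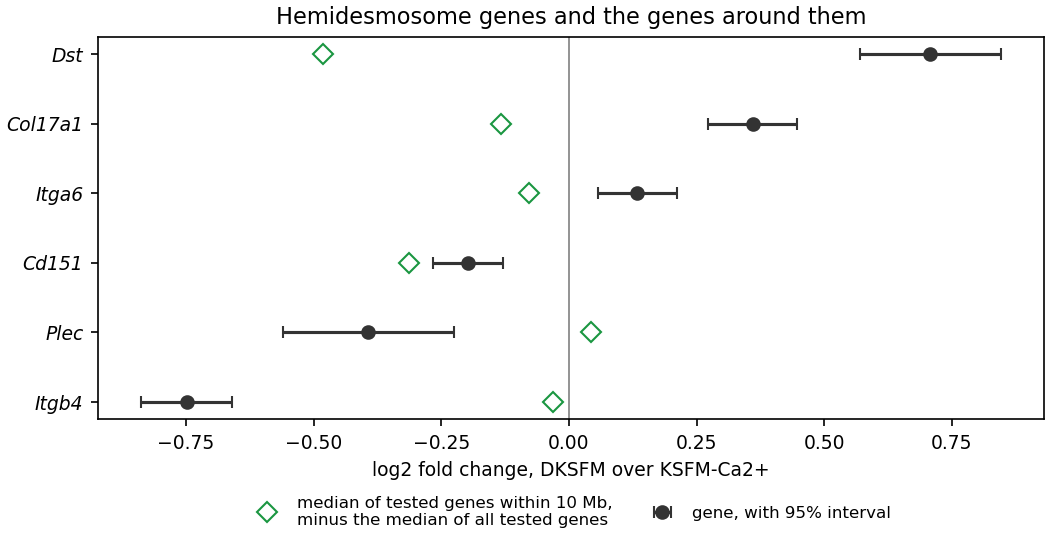
Log2 fold change of each hemidesmosome gene, DKSFM over KSFM-Ca2+, with 95% intervals from limma (filled points), beside the median of tested genes within 10 Mb relative to all tested genes (open diamonds). The diamond for Dst lies at -0.48, opposite to the gene at 0.71, and that for Cd151 at -0.31, below the gene at -0.20.

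Promoter windows of 300 bases, from 250 before to 50 after the start, were found by symbol for 3 of the 6 genes (RefSeq, GRCm38.p6). Those of Col17a1 and Dst, the genes that rose most, are shown 5′ to 3′. Capitals mark TATAAA in Col17a1 and GGGCGG in Dst, and TGANTCA was also searched, each on both strands. The Col17a1 window is chr19:47691993-47692292 (minus strand), and the Dst windows are chr1:34011345-34011644 and chr1:34160010-34160309 (plus strand). Both Dst windows lie inside the annotated gene, which has transcripts that start further upstream. Protein-coding transcripts of 17212 to 23279 bases start at 34011813 or 34011825, near the first, GC-rich window. Those that start at 34160330, near the second window, have 8788, 8961 and 16340 bases. Which start these cells used was not measured.
Col17a1: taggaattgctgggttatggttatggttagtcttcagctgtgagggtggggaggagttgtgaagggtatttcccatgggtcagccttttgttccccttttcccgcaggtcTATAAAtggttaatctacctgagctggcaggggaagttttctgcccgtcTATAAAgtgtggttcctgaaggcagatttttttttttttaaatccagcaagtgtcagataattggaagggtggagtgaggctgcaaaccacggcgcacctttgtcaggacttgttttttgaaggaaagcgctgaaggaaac
Dst, GC-rich window: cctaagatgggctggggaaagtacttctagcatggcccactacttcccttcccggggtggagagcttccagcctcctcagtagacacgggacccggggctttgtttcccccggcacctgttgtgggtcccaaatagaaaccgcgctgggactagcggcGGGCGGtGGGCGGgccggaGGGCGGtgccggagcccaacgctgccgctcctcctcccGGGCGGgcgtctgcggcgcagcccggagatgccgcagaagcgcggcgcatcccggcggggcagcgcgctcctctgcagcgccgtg
Dst, other window: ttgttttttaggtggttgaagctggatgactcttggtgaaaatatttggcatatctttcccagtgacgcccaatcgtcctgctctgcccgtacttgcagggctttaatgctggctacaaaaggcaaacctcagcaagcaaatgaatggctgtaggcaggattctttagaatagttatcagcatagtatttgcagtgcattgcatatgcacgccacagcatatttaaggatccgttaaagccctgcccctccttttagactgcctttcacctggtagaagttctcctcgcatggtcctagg

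TATAAA occurred in the Col17a1 window at 140 and 91 bases before the start, and in 13.6% of all 32817 windows. GGGCGG occurred 4 times in the GC-rich Dst window, 2 times in one Cd151 window and in 35.6% of all windows. TGANTCA was in none of the windows of these genes and in 7.81% of all windows. The GC content was 46.3% for Col17a1, 70.3% and 46.0% for the Dst windows, and 64.3% and 56.7% for Cd151, against a median of 52.7% over all windows. These matches describe the letters only.

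On the ligand side of the junction most genes were lower in DKSFM. Of 9 genes for basement membrane ligands and anchors, 8 were tested, and 2 were higher and 6 lower in DKSFM, with 4 lower by at least 2-fold (3 under quantile normalization) and a median log2 fold change of -0.90. Among all tested genes 35.1% were called higher and 37.4% lower, and 10.6% were lower by at least 2-fold. Lama3 and Lamb3 encode chains of laminin-332, the ligand of α6β4. Lama3 fell from 363 ± 5.18 to 114 ± 4.39 (log2 fold change -1.66) and Lamb3 from 607 ± 15.9 to 296 ± 10.3 (-1.03, SD, n = 3 each). Lamb3 lies on chromosome 1, where tested genes other than Dst had a median of -0.42 relative to all tested genes. The part of this in the fall of Lamb3 was not tested. Col7a1, the anchoring fibril collagen, rose from 39.8 ± 4.93 to 53.6 ± 3.19, and Lama5 rose from 42.4 ± 2.29 to 52.9 ± 0.449. Nid1 was listed at 0 in every library.

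The keratins to which hemidesmosomes attach were both called and at least 2-fold higher in DKSFM, except that under quantile normalization Krt14, at a log2 fold change of 0.91, was under 2-fold. Krt5 went from 4694 ± 26.0 to 11125 ± 818 and Krt14 from 12001 ± 242 to 29657 ± 1597 (SD, n = 3 each). The 5 other plakins tested were all higher in DKSFM, 4 of them by at least 2-fold, with a median log2 fold change of 1.26. Over all tested genes 35.1% were called higher, and 13.1% were higher by at least 2-fold. Ppl (periplakin) rose from 63.5 ± 4.76 to 182 ± 3.62 and Dsp (desmoplakin) from 138 ± 4.40 to 330.2 ± 5.26, whereas the cytoskeletal crosslinker Macf1 went from 17.8 ± 0.415 to 21.2 ± 0.642. Plec was thus the plakin that fell. Among 4 other integrin-associated tetraspanins, 3 were higher and 1 was not called, with a median of 0.34, the opposite direction to Cd151. Cd9 rose from 814 ± 16.96 to 968 ± 30.1 and Cd81 from 429 ± 9.06 to 575 ± 22.0.

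Other adhesion structures were described for comparison. Their counts stand beside shares over all tested genes of 35.1% higher and 37.4% lower, with 10.6% lower by at least 2-fold. Of 17 focal adhesion genes 13 were lower, 3 higher and 1 not called, with 7 lower by at least 2-fold and a median of -0.44. Itga3, the laminin-binding partner of β1, fell from 1003 ± 32.0 to 252 ± 2.97, while Zyx (zyxin) rose from 218 ± 4.33 to 312 ± 20.02. Under quantile normalization Ilk lost its call (limma adjusted p = 0.0186). Of 10 desmosome genes, which include Dsp, 7 were higher, 2 lower and 1 not called, with a median of 0.65. The hemidesmosome genes, at a median of -0.03, lay between these lists, and no test of the lists was made.

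**Figure D4:**
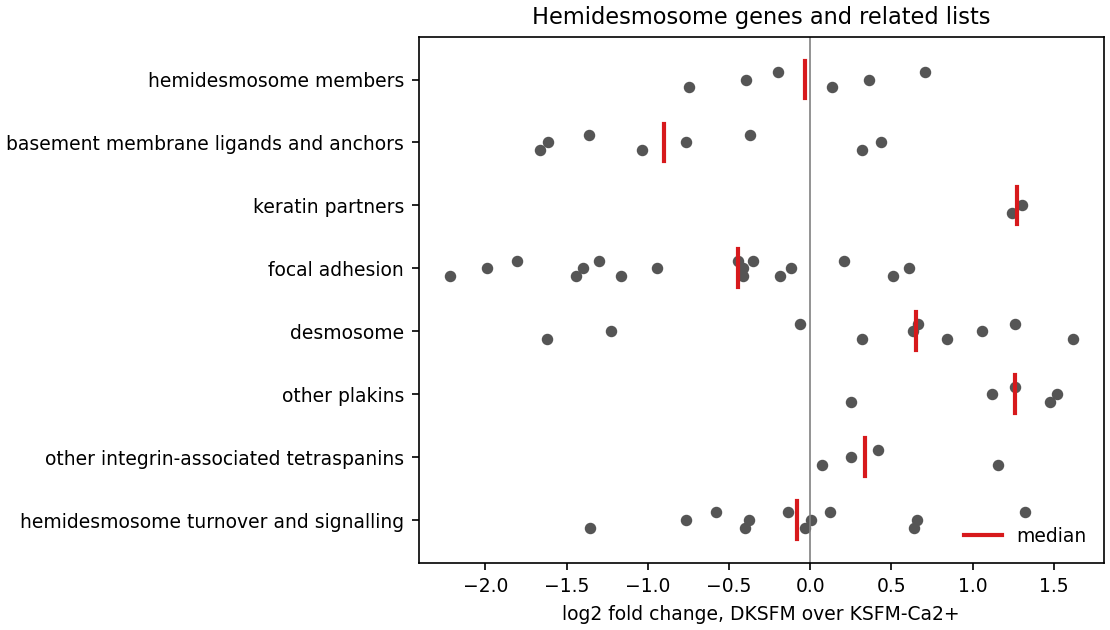
Log2 fold change, DKSFM over KSFM-Ca2+, of each tested gene (points) of the hemidesmosome and related lists, with list medians in red. The hemidesmosome genes spread from -0.75 to 0.71, and the medians run from -0.90 for basement membrane ligands and anchors to 1.27 for the keratin partners.

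Of 12 genes for hemidesmosome turnover and signalling, 3 were higher, 5 lower and 4 not called, with a median of -0.08. The shares over all tested genes were 35.1% higher and 37.4% lower. Egfr, a receptor whose signalling can loosen hemidesmosomes, rose from 18.6 ± 0.238 to 46.8 ± 2.08. Fyn, a kinase that acts on β4, fell from 20.7 ± 1.24 to 8.04 ± 0.568. The sheddases that can cleave collagen XVII were divided, with Adam9 falling from 180 ± 4.59 to 120.1 ± 5.49, Adam10 rising from 54.2 ± 2.25 to 84.4 ± 1.13 and Adam17 from 150 ± 6.98 to 236 ± 2.80. Trp63, the basal lineage regulator, was 405 ± 12.4 and 442 ± 13.7, a log2 fold change of 0.12 (limma adjusted p = 0.00948), a call lost with scaling by library totals only (0.0186).

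The cell type markers bore on how the 6 genes are read. All 7 keratinocyte markers were above 0, with Krt14 the most abundant, and their summed coverage was 19516, 19928 and 19593 in KSFM-Ca2+ and 48297, 44540 and 48921 in DKSFM. Most of the sum was Krt14 and Krt5. Of the 7, 5 were called higher in DKSFM and 1, Cdh1, lower (159.8 ± 2.46 against 145 ± 3.51, limma adjusted p = 0.00292), while Sfn was not called (limma adjusted p = 0.0373). Under quantile normalization Cdh1 lost its call (limma adjusted p = 0.0274) and Sfn was called higher (0.00957). With scaling by library totals only, 4 of the 7 were called higher and 1 lower. In the main scaling 35.1% of all tested genes were called higher and 37.4% lower. All 5 suprabasal markers were above 0 in at least 1 library, led by Sbsn, with sums of 83.4, 79.5 and 87.3 against 802, 849 and 797. Of the 4 tested, 3 were called higher in DKSFM and 1 lower, with a median log2 fold change of 1.95. Sbsn rose from 58.2 ± 3.55 to 793 ± 28.1 and Lor from 0.332 ± 0.247 to 3.98 ± 0.233, while Ivl fell from 21.4 ± 0.200 to 13.5 ± 0.400 (SD, n = 3 each). Krt10 was 3.50 ± 0.155 and 4.99 ± 0.936, a call lost with library totals only (limma adjusted p = 0.0110) and under quantile normalization (0.0654), and Krt1 was listed at 0 in KSFM-Ca2+. Most of the sum was Sbsn. Without it the other 4 markers, of which Ivl was the most abundant, summed to 24.8, 25.0 and 25.8 in KSFM-Ca2+ and 22.0, 24.1 and 22.7 in DKSFM. The part of these differences in the values of the 6 hemidesmosome genes was not tested.

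Summed markers of other skin cells were below each of the hemidesmosome genes in every library. The largest of these sums were those of the immune list in both lines and the melanocyte list in DKSFM. They reached 12.6 in KSFM-Ca2+, where Dst was 30.7 to 35.2, and 20.6 in DKSFM, where Dst was 52.5 to 56.2. Among 8 fibroblast markers, 7 were listed at 0 in all libraries, and the remaining one, Pdgfra, gave sums of 0.89 to 1.3 in KSFM-Ca2+ and 2.09 to 2.33 in DKSFM. Of the melanocyte markers Tyr and Dct were at 0, and the sums were 3.97 to 4.61 in KSFM-Ca2+ and 17.3 to 18.7 in DKSFM, most of it Mitf. Without Mitf the other melanocyte markers did not rise, with sums of 0.534, 0.893 and 0.709 in KSFM-Ca2+ and 0.318, 0.696 and 0.212 in DKSFM. Cdh5 and Tie1 of the endothelial markers were at 0, with sums of 2.67 to 3.07 in KSFM-Ca2+ and 7.11 to 8.15 in DKSFM, nearly all of it Pecam1. Without Pecam1 the endothelial sums were 0.0763, 0.0993 and 0 in KSFM-Ca2+ and 0.212, 0.199 and 0.212 in DKSFM. The immune sums were 10.9 to 12.6 in KSFM-Ca2+ and 13.6 to 20.6 in DKSFM, nearly all of it Cd68, with Cd3e at 0. Without Cd68 the immune sums were 0.0763, 0.0993 and 0.118 in KSFM-Ca2+ and 0, 0.199 and 0 in DKSFM. Pdgfra, Mitf, Pecam1 and Cd68 were each called higher in DKSFM, Cd68 not under quantile normalization (limma adjusted p = 0.0108), and their part in the values of the hemidesmosome genes was not tested. Merkel cell sums were at most 1.07 with Atoh1 at 0, and skeletal muscle sums at most 1.06 led by Des.

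For each of the 6 genes the genes of most similar pattern over the 6 libraries were found among 8677 candidates by the root mean square difference of centred log2 coverage. The closest were Csnk1d (0.00539) and Cadm1 (0.0125) for Itga6, and Ckap5 (0.0153) and Gtf3c1 (0.0161) for Itgb4. For Col17a1 they were Abhd11 (0.0110) and Tnks1bp1 (0.0147), and for Dst Shkbp1 (0.0219) and Pex13 (0.0237). Plec was nearest to Fasn (0.0370) and Ndufaf6 (0.0429), and Cd151 to Pigs (0.0120) and Tor1aip2 (0.0128). Since the libraries of a line were close, this distance mostly picks genes of similar fold change, such as 0.13 for both Csnk1d and Itga6. A near match therefore does not show shared regulation.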

How the data were processed

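RNA from 3 KSFM-Ca2+ and 3 DKSFM samples was sequenced by the authors as directional poly(A) libraries with single reads of 85 bases, aligned to mm10 with STAR and quantified with Salmon on RefSeq genes. The deposited values are coverage per gene, written to a step of 0.1 and not scaled between libraries. The authors tested counts with DESeq2, which was also planned here, but coverage is not a count. Limma 3.58.1 in R 4.3.3 was therefore used on the log2 of normalized coverage plus 0.1, letting the variance follow the intensity, so fold changes of low genes are understated. Scaling used an unweighted trimmed mean of M values (factors 0.989 to 1.01), and genes with normalized coverage of at least 0.5 in 3 libraries were tested, 12409 of 24982. Calls used a Benjamini-Hochberg adjusted p under 0.01. Ratios were compared by exact two-sided permutation.

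All 6 hemidesmosome genes, genes of related lists and the 2 nearest-pattern genes of each (mean coverage of at least 10) were named. The genes and lists were chosen with earlier results of these data known. Positions came from GENCODE M21, which matched 24490 symbols. Alternatives covered scaling, filters, pseudocounts of 0.5 and 1, the variance model, thresholds, the replicate number as a block, and fewer libraries. The fit was tested on simulated data. Results of some listed genes are not reported here.

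The files give depth only as coverage, so no counting intervals are given. Multiplied by each gene's median transcript length and divided by the read length, coverage gave roughly 15.4 to 23.6 M reads per library. With protein-coding transcripts alone, a length added after the first values had been seen and with the depth stated for the study known, so not an independent estimate, it gave 21.1 to 32.3 M. By the same lengths, the variance between libraries of a line was 1.19 to 2.07 or 1.75 to 3.11 times that of Poisson counting. These values depend on the length taken and cannot tell repeat libraries of one RNA from separate cultures. Each library was kept as a separate sample.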

Additional observations from a re-analysis of the deposited data

How the results depend on the processing

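None of the 6 genes or 7 ratios changed direction under the alternatives run. For the ratios this was already given, since their libraries did not overlap and their alternatives only left libraries out or paired them. Itgb4, Col17a1 and Dst kept their calls in all 17, with log2 fold changes of -0.77 to -0.67, 0.33 to 0.43 and 0.65 to 0.84. Among the 17, raising the threshold to 0.05 could not lose a call. The filters, the variance model and the replicate block left the fold changes as they were. Itga6 lost its call with library totals only (0.13, limma adjusted p = 0.0103), without the intensity trend (0.13, 0.0234) and with the combined libraries only (0.18, 0.0286), and ranged from 0.11 to 0.15 when single libraries were left out. With the combined libraries only, 1 against 3, Plec (-0.33, 0.0857) and Cd151 (-0.21, 0.0147) also lost theirs, leaving 1 lower gene, and over all tested genes 3012 were called lower in place of 4641; that comparison has fewer samples, and the lone KSFM-Ca2+ library was assumed to vary like the DKSFM ones. In the same setting the log2 ratio differences were 1.14 for Col17a1/Itgb4, 1.55 for Dst/Itgb4 and -0.39 for Cd151/Itga6. A 2-fold threshold left 0 higher and 0 lower genes, since the log2 fold changes of the 6 lay between -0.75 and 0.71 before any other choice was changed. The replicate numbers did not pair the libraries: deviations of same-numbered libraries correlated at -0.0651, 0.0454 and -0.0242. With the replicate block 4242 genes were called higher and 4512 lower, against 4361 and 4641, and Itga6 (0.13, limma adjusted p = 0.0148) was the one hemidesmosome gene not called; a paired exact test of 3 pairs cannot go below 0.25. For Itga6 the cause was not tested.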
